A study of Mus musculus with 20 samples.

Results

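Core pluripotency regulators are the transcription factors and signalling cofactors that hold mouse embryonic stem cells in their undifferentiated state. The 10 members, Pou5f1, Nanog, Sox2, Esrrb, Tfcp2l1, Nr5a2, Zfp42, Sall4, Tdgf1 and Prdm14, were found by their symbols among the 24411 genes listed, and all 10 passed the filter on low counts in every comparison. Their RNA was read in 16 libraries of in vitro fertilised mouse embryos, each made from a pool of 10 embryos. In the knockdown, siRNA against Pcgf5 (siPcgf5) or non-targeting siRNA (siControl) was electroporated at the one-cell stage, 3 hours after insemination. These embryos were collected at the late 2-cell stage at 36 hours (2 siPcgf5 and 2 siControl libraries) and at the morula stage at 72 hours (2 siPcgf5 and 2 siControl libraries). In the deletion experiment, embryos at the 4-cell stage at 48 hours carried a homozygous deletion of an MT2C_Mm repeat at Pcgf5 (Homo KO, 3 libraries), a heterozygous one (Hetero KO, 3 libraries) or none (WT, 2 libraries). MT2C_Mm is an LTR (long terminal repeat) related to that of the retrotransposon MERVL, and Pcgf5 is a subunit of a variant Polycomb repressive complex 1. The labels do not say which parent passed on the heterozygous deletion, and embryos of a pool cannot be told apart. The series title concerns MERVL-driven Pcgf5 and genome activation in the embryo. The comparisons here ask how the pluripotency regulators stood at each stage and whether the knockdown or the deletion changed them.

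Pou5f1 (OCT4) and Sox2 are DNA-binding partners that occupy shared octamer and SOX motifs, and together with the homeodomain factor Nanog they form the core circuit of pluripotent cells. Esrrb and Nr5a2 are orphan nuclear receptors that bind extended single-copy versions of the receptor motif, and Tfcp2l1 is a grainyhead-family factor downstream of LIF signalling. Zfp42 (REX1), Sall4 and Prdm14 are zinc-finger proteins of naive pluripotent cells, and Tdgf1 (Cripto) is a membrane-anchored coreceptor for Nodal. In the mouse embryo these genes come to mark the inner cell mass and epiblast, while several of them are already transcribed during cleavage.

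Promoter sequences are shown for the core trio and for Zfp42, because Pou5f1, Nanog and Zfp42 were among the members whose RNA was called higher at the morula and Sox2 was not. Each is the stretch of 250 bases just before the annotated start site that lies nearest the 5′ end of the gene. Sequences are from RefSeq on GRCm38.p6, 5′ to 3′ on the strand of the gene. Capitals mark matches, on either strand, to the octamer core ATGCAAA, the nuclear receptor core TCAAGG or the SOX core ACAATG. Of the 10 members, 8 had an entry in the promoter table, and Sall4 and Prdm14 are named only. The windows are Pou5f1 at chr17:35505782-35506031 (plus strand), Nanog at chr6:122707239-122707488 (plus strand), Sox2 at chr3:34649745-34649994 (plus strand) and Zfp42 at chr8:43307010-43307259 (minus strand).
Pou5f1: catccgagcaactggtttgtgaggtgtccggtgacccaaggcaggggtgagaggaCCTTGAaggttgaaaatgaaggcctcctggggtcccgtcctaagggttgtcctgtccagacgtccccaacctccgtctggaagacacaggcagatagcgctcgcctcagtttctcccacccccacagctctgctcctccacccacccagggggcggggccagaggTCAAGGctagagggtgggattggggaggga
Nanog: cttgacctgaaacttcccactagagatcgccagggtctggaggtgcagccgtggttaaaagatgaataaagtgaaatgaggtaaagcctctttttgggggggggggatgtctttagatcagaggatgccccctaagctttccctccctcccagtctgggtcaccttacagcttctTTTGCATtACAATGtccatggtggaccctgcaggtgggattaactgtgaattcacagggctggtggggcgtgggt
Sox2: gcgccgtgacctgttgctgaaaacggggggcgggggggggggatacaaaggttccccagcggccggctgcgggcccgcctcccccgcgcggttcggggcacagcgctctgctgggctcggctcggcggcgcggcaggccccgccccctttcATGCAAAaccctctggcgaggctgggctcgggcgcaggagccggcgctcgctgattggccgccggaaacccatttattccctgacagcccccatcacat
Zfp42: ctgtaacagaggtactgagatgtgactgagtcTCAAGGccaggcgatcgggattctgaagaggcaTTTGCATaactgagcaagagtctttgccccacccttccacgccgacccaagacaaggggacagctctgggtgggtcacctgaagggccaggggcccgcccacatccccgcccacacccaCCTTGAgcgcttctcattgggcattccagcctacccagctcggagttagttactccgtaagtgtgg

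The octamer core was found in Nanog, with its first base at position -75, in Sox2 at -99 and in Zfp42 at -185, where the base just before the start site is -1. It occurred in 4.12% of all 32851 promoter windows of this length. The receptor core was found at -195 and -30 in Pou5f1 and at -218 and -66 in Zfp42, and occurred in 12.5% of windows. The SOX core, at 10.7% of windows, was found in Nanog at -67, 1 base past the end of the octamer match. The windows of Esrrb, Tfcp2l1, Nr5a2 and Tdgf1 held none of these strings. A match is a string of letters and not a measured binding site, and the same octamer string stood before genes that rose to the morula (Nanog, Zfp42) and before Sox2, which was not called.

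Depth ran from 14310634 to 55620137 summed expected counts per library, with the 4-cell libraries at the lower end. Levels within a gene are given as CPM (read counts relative to library size, scaled by TMM over the 16 libraries), and levels between genes as deposited TPM, which corrects for length. Changes are given on the log2 scale, with a standard error (SE) from edgeR's quasi-likelihood fit, and a gene was called at a Benjamini-Hochberg adjusted p under 0.05 over all genes tested. Nothing in the labels says that replicates were separate cultures or litters, so the p-values reflect spread among these libraries alone. Pcgf5 stood at 53.9 and 89.4 CPM in late 2-cell siPcgf5 libraries and 316 and 811 CPM in late 2-cell siControl libraries, and at 39.5 and 32.4 CPM in morula siPcgf5 libraries and 246 and 166 CPM in morula siControl libraries, on the side the labels give in all 8 libraries. At the 4-cell stage it stood at 191, 211 and 162 CPM in Homo KO, 336, 252 and 284 CPM in Hetero KO and 328 and 294 CPM in WT. Markers of stage and of other cell types, given here as sums, moved with stage. A sum is weighted to the most abundant genes of its list and need not follow most of them. For siControl morula against siControl late 2-cell, 7 of 11 trophectoderm markers were called higher and 2 lower (median log2 fold change 1.67). Of 7 primitive endoderm markers tested there, 3 were called higher and 1 lower (median -1.24). The summed level of 10 oocyte markers, all above 0 in every group, was 2254 to 3519 CPM in siControl late 2-cell, 402 to 480 CPM in WT 4-cell and 43.1 to 43.7 CPM in siControl morula libraries. The 11 markers of 2-cell genome activation summed to 1863 to 2336 CPM (all 11 above 0), 725 to 940 CPM (9 above 0, Usp17le and Dux at 0) and 476 to 512 CPM (10 above 0, Zscan4f at 0) in the same order of stages. The 11 trophectoderm markers summed to 329 to 339 CPM (all 11 above 0), 111 to 136 CPM (9 above 0, Cdx2 and Elf5 at 0) and 271 to 289 CPM (10 above 0, Elf5 at 0), and the 8 primitive endoderm markers to 56.3 to 69.8 CPM (all 8 above 0), 35.1 to 57.9 CPM (5 above 0, Sox17, Sox7 and Foxa2 at 0) and 576 to 696 CPM (all 8 above 0). Blood markers (6 genes, Hbb-bs and Hbb-bt at 0 throughout) summed to 248 to 255, 20.2 to 48.3 and 16.5 to 19.3 CPM, cumulus and granulosa markers (9 genes, Amh and Fshr at 0 throughout) to 21.1 to 21.6, 2.21 to 2.41 and 0 to 0.128 CPM, and sperm markers (6 genes, all above 0 at late 2-cell, Tnp2 and Akap4 at 0 later) to 10.3 to 10.9, 1.71 to 1.83 and 0.748 to 0.945 CPM. The part of these changes in the members' levels was not tested, and in pooled embryos fewer cells that express a gene and less RNA per cell cannot be told apart.

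Most of the pluripotency regulators were higher in the morula than in the late 2-cell embryo. In siControl embryos 7 of the 10 members were called higher at the morula and 0 were called lower, where 24.9% of all genes tested were called higher, and the members' median log2 fold change was 2.62 against -0.34 over all genes. The 7 were Pou5f1, Nanog, Esrrb, Tfcp2l1, Zfp42, Sall4 and Tdgf1. In siPcgf5 embryos the same 7 were called higher and 0 lower, against 24.5% of all genes called higher, with a member median of 2.33 and a median of -0.38 over all genes. Sox2, Nr5a2 and Prdm14 were called in neither. Each of these 14 calls held with every alternative setting and with every library left out in turn.

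**Figure D1:**
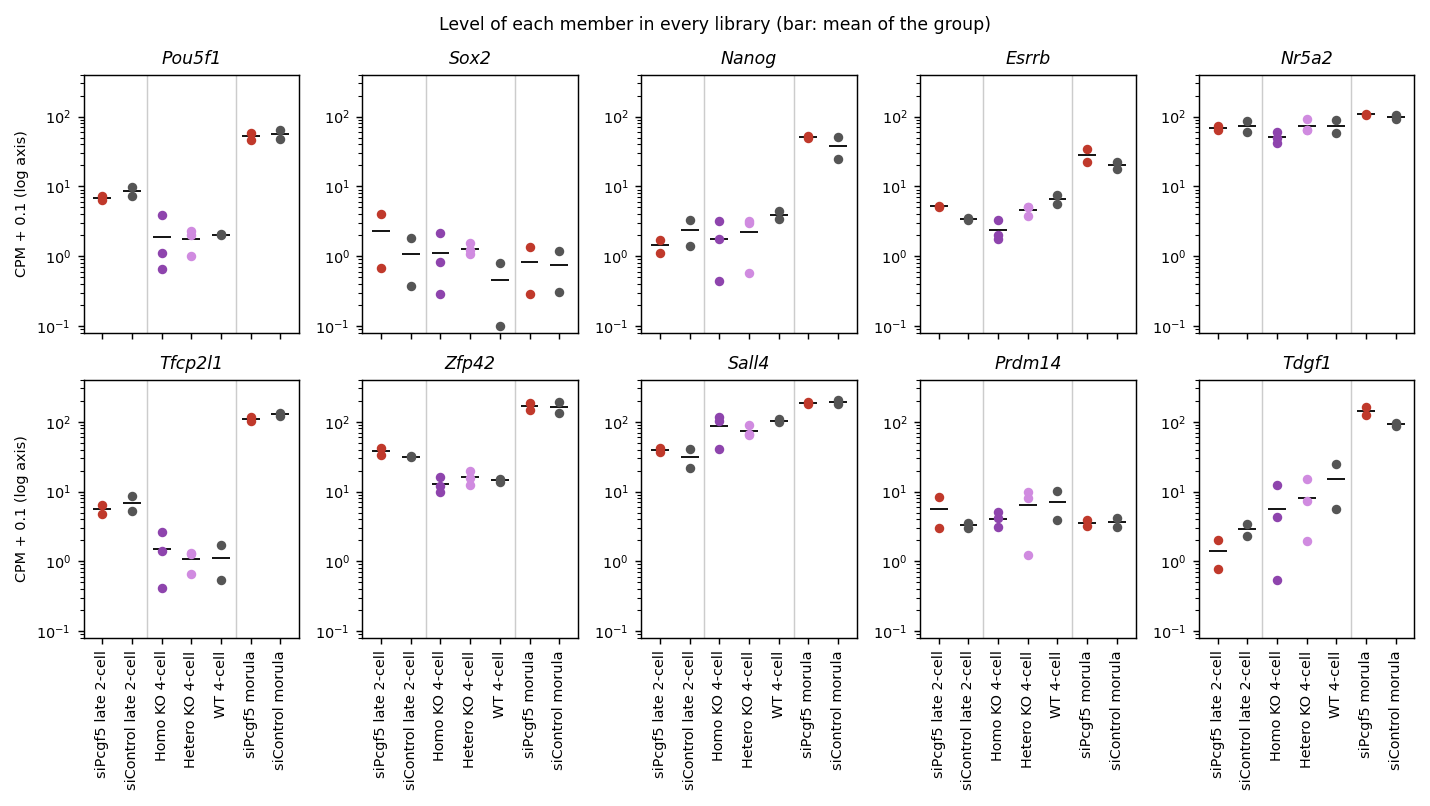
Level of each member in every library, as CPM plus 0.1 on a log axis, with 1 point per library and a bar at the mean of its group; late 2-cell, 4-cell and morula groups run from left to right within each panel. Pou5f1, Tfcp2l1 and Zfp42 are lower in all 8 libraries of the 4-cell stage than in all 4 of the late 2-cell stage, while Sox2 and Prdm14 stay under 11 CPM throughout.

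Pou5f1 had 64.4 and 47.7 CPM in siControl morulae, against 9.71 and 7.17 CPM in siControl late 2-cell embryos, a log2 fold change of 2.74 (SE 0.296, 6.66-fold, edgeR adjusted p = 2.7e-05). The 4-cell libraries, from the other experiment, stood below both stages, and stage and experiment cannot be told apart here. WT 4-cell libraries held 1.96 and 1.88 CPM, from 31 and 32 expected counts, and Homo KO and Hetero KO libraries held between 0.559 and 3.73 CPM. The 4-cell and late 2-cell values do not overlap in any library. Against siControl late 2-cell embryos, Pou5f1 was lower in WT 4-cell embryos, with a log2 fold change of -2.14 (SE 0.615, edgeR adjusted p = 0.0142), and it rose by 4.86 at the siControl morula against WT 4-cell (SE 0.676, edgeR adjusted p = 6.1e-05).

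Tfcp2l1 showed the same course with a wider swing. It held 8.47 and 5.14 CPM in siControl late 2-cell, 0.442 and 1.59 CPM in WT 4-cell and 135 and 122 CPM in siControl morula libraries. Its change was -2.73 in WT 4-cell against siControl late 2-cell embryos (SE 0.65, edgeR adjusted p = 0.00502) and 6.97 in siControl morula against WT 4-cell embryos (SE 0.743, edgeR adjusted p = 1.0e-05). The second step was 125-fold, the largest among the 10 members. Zfp42, in contrast, was well expressed at each stage, at 31.9 and 31.2 CPM, then 13.8 and 15.1 CPM and then 189.6 and 134 CPM in the same groups. It changed by -1.13 at the first step (SE 0.289, edgeR adjusted p = 0.00712) and by 3.48 at the second (SE 0.313, edgeR adjusted p = 1.5e-06). Of the 10 members these 3 were called lower at the first step, where 15.2% of all genes were called lower.

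Sall4 went the other way at the first step. It held 21.7 and 41.1 CPM in siControl late 2-cell, 97.7 and 109 CPM in WT 4-cell and 182 and 207 CPM in siControl morula libraries. It was the 1 member called higher in WT 4-cell against siControl late 2-cell embryos, by 1.72 (SE 0.392, edgeR adjusted p = 0.00341), where 17.5% of all genes were called higher. Its second step of 0.91 was not called (SE 0.383, edgeR adjusted p = 0.0836), although its siControl morula values lie above both WT values.

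Nanog and Esrrb were called at the second step only, and whether their first and second steps differ was not tested. Nanog held 1.28 and 3.19 CPM in siControl late 2-cell, 4.29 and 3.3 CPM in WT 4-cell and 51.6 and 24.2 CPM in siControl morula libraries. The 2 morula libraries differ by over 2-fold, and both stand far above the 4-cell values, with a step of 3.32 (SE 0.835, edgeR adjusted p = 0.00722). Esrrb held 3.21 and 3.38 CPM, 5.49 and 7.47 CPM and 22.1 and 17.6 CPM in these groups. Its first step was 0.98 (SE 0.424, edgeR adjusted p = 0.087) and its second 1.61 (SE 0.425, edgeR adjusted p = 0.00877). In all, 5 members were called higher at the second step (Pou5f1, Nanog, Esrrb, Tfcp2l1 and Zfp42) and 0 lower, where 14.9% of all genes were called higher.

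Tdgf1 had the largest rise of any member from late 2-cell to morula. It held 87.8 and 95.7 CPM in siControl morulae, against 2.22 and 3.34 CPM in siControl late 2-cell embryos, which is 33.4-fold or 5.06 on the log2 scale (SE 0.443, edgeR adjusted p = 7.2e-06). In WT 4-cell libraries it held 5.49 and 24.8 CPM, and neither its first step of 2.45 (edgeR adjusted p = 0.151) nor its second of 2.60 (edgeR adjusted p = 0.134) was called. Both WT values lie between the siControl late 2-cell and the siControl morula values.

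**Figure D2:**
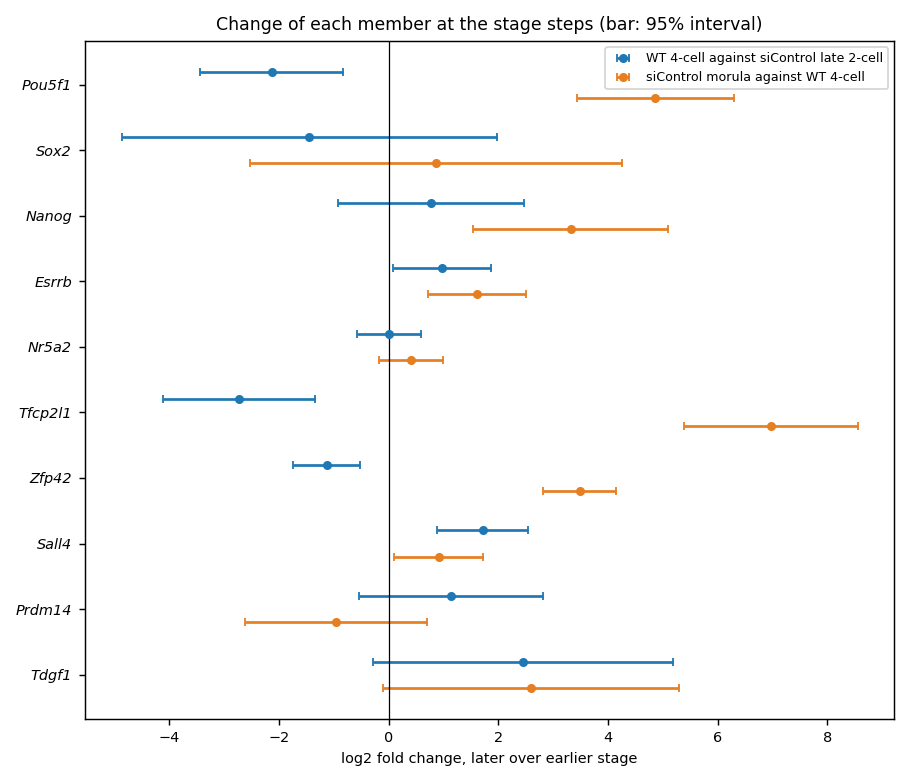
Log2 fold change of each member at both stage steps, later over earlier stage, with 95% intervals from the edgeR fit over all 16 libraries. Pou5f1, Tfcp2l1 and Zfp42 lie left of 0 at the first step and right of it at the second, and Sall4 lies right of 0 at both. The intervals of Sox2, Prdm14, Nr5a2 and Tdgf1 cross 0 at both.

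Nr5a2, which in mouse is also a factor of early genome activation, was among the most abundant members at the late 2-cell and 4-cell stages and was not called at any step. It held 59.7 and 86.6 CPM in siControl late 2-cell, 57.3 and 90.1 CPM in WT 4-cell and 91 and 105 CPM in siControl morula libraries. The change from late 2-cell to morula was 0.43 in siControl (95% interval -0.10 to 0.96, edgeR adjusted p = 0.149) and 0.61 in siPcgf5 (95% interval 0.09 to 1.14, edgeR adjusted p = 0.0506). Its direction depends on the scale, since limma on log2(TPM + 1) gave -0.54 and -0.24 for these changes. Prdm14 and Sox2 remained low. Prdm14 held 2.89 to 8.20 CPM over the 4 late 2-cell libraries, 1.13 to 10.1 CPM over the 8 at the 4-cell stage and 3.05 to 4.14 CPM over the 4 morula libraries. Sox2 held at most 3.86 CPM in any library, from 0 to 121 expected counts, and its 95% interval for siControl morula against siControl late 2-cell was -3.58 to 2.44, a wide span around -0.57 (SE 1.36). Sox2 lies inside the transcript of the noncoding gene Sox2ot, which had 0 to 42 counts per library.

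At these steps, stage, electroporation with control siRNA and experiment cannot be told apart, because the 4-cell embryos come from the other experiment. Leaving out 1 library ended calls at both steps. Pou5f1 lost the first-step call without siControl late 2-cell replicate 1, WT replicate 1 or WT replicate 2 (edgeR adjusted p = 0.0691, 0.0624 and 0.0886), and Sall4 lost it without siControl late 2-cell replicate 1 (0.0633, by the same test), with log2 values of -1.94 to -2.20 and 1.29. Nanog lost the second-step call without siControl morula replicate 1, WT replicate 1 or WT replicate 2 (edgeR adjusted p = 0.0563, 0.0525 and 0.0663), and Esrrb without siControl morula replicate 1 or WT replicate 1 (0.0672 and 0.0787, by the same test) and with limma on TPM (log2 value 0.72). The stage calls of Tfcp2l1 and Zfp42 held throughout.

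The scale matters for the size of the stage changes. TPM changes were lower than CPM changes by 1.00 on the log2 scale for siControl morula against siControl late 2-cell, as the median over 25 listed genes with at least 10 TPM in both groups. For WT 4-cell against siControl late 2-cell the shift was -0.34, and for siControl morula against WT 4-cell it was -0.65. In TPM, Pou5f1 averaged 39.2 in siControl morula and 11.7 in siControl late 2-cell libraries, and Tdgf1 averaged 41.5 and 2.51 in these groups. The 7 members called higher at the morula were called by limma on TPM as well, with smaller values. Of all calls between siControl morula and siControl late 2-cell, 47.0% were higher on the count scale and 25.0% on the TPM scale; for siPcgf5 these were 46.5% and 27.2%, for the first step 53.6% and 31.4% (43.4% with DESeq2), and for the second 49.4% and 31.8%.

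The order of the members by TPM changed with stage. In siControl late 2-cell embryos the highest were Nr5a2 at 28.6 to 37.5 TPM and Zfp42 at 29.2 to 32.8 TPM, which overlap, followed by Sall4 at 13.7 to 24.2 and Pou5f1 at 9.45 to 13.9 TPM, which overlap too. The other members averaged 0.66 to 2.51 TPM there. In WT 4-cell embryos Sall4 led at 47 to 51.2 TPM, clear of Nr5a2 at 22.4 to 29.2 and of Zfp42 at 10.6 to 11.6 TPM, and Tdgf1 spanned 4.29 to 16.1 TPM, across the values of Zfp42. Tfcp2l1 was lowest at 0.07 to 0.19 TPM, within the range of Sox2 at 0 to 0.35 TPM. In siControl morulae Zfp42 led at 65.5 to 92 TPM, above Sall4 at 55.5 to 63.5 TPM. Tdgf1 at 39.5 to 43.4 and Pou5f1 at 34.2 to 44.3 TPM overlapped, as did Nanog at 10.1 to 21.6 TPM with Nr5a2 at 20.6 to 24 TPM and with Tfcp2l1 at 10.6 to 11.6 TPM. Esrrb averaged 3.88, Prdm14 1.18 and Sox2 0.225 TPM in these morulae. Each range is of 2 libraries.

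The knockdown of Pcgf5 changed no member past the threshold at either stage. Pcgf5 itself missed that threshold too, with log2 fold changes of -2.96 at the late 2-cell stage and -2.53 at the morula and no overlap between siPcgf5 and siControl libraries (edgeR adjusted p = 0.0789 and 0.242), so a change of that size in a gene with this spread was not called here. At the late 2-cell stage 0 of 10 were called, where 0.0118% of all genes were called (2 of 16980), and 1 of 10 (Tdgf1) had an unadjusted p under 0.05. At the morula 0 of 10 were called, where 0% of all genes were called by edgeR, and 0 of 10 had an unadjusted p under 0.05. Over all genes, 947 and 716 had an unadjusted p under 0.05 at these stages, and the DESeq2 Wald test called 72 and 23 genes, none of them a member. Libraries of siPcgf5 and siControl did not overlap for 3 members at the late 2-cell stage (31.2% of all genes) and for 3 at the morula (31.5% of all genes).

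Pou5f1 had 6.28 and 7.11 CPM in late 2-cell siPcgf5 libraries and 9.71 and 7.17 CPM in late 2-cell siControl libraries, with a change of -0.32 (95% interval -0.94 to 0.31). It had 46.3 and 57.5 CPM in morula siPcgf5 libraries and 64.4 and 47.7 CPM in morula siControl libraries, a change of -0.12 (95% interval -0.73 to 0.49). The siPcgf5 and siControl values interleave at the morula and nearly touch at the late 2-cell stage, where the order of the nearest pair depends on the scaling. Nanog had 1.02 and 1.62 CPM in late 2-cell siPcgf5 libraries and 1.28 and 3.19 CPM in late 2-cell siControl libraries, and 52.4 and 49.3 CPM in morula siPcgf5 libraries and 51.6 and 24.2 CPM in morula siControl libraries. Its changes were -0.71 and 0.41, with intervals of -1.82 to 0.40 and -0.59 to 1.41. Sox2 was too low to bound, with intervals of -1.81 to 4.19 and -2.91 to 3.11.

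Esrrb was higher in both siPcgf5 libraries than in both siControl libraries at each stage, without passing the test. It had 5.2 and 4.97 CPM in late 2-cell siPcgf5 libraries and 3.21 and 3.38 CPM in late 2-cell siControl libraries, a change of 0.64 (SE 0.337, edgeR adjusted p = 0.931). It had 33.7 and 22.2 CPM in morula siPcgf5 libraries and 22.1 and 17.6 CPM in morula siControl libraries, a change of 0.48 (SE 0.326, edgeR adjusted p = 1). At the morula the nearest libraries of the groups differ by little. Nr5a2 and Tfcp2l1 had log2 fold changes of -0.07 and -0.31 at the late 2-cell stage and 0.12 and -0.24 at the morula.

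Among the zinc-finger members, Zfp42 had a log2 fold change of 0.28 and Sall4 of 0.34 at the late 2-cell stage, and of 0.03 and -0.06 at the morula. Both siPcgf5 libraries held more Zfp42 at the late 2-cell stage, at 42.5 and 33.4 CPM in late 2-cell siPcgf5 libraries against 31.9 and 31.2 CPM in late 2-cell siControl libraries. Prdm14 had 8.2 and 2.89 CPM in late 2-cell siPcgf5 libraries and 2.93 and 3.42 CPM in late 2-cell siControl libraries, where 1 siPcgf5 library alone was high. At the morula the 95% intervals of Pou5f1, Nr5a2, Tfcp2l1, Zfp42 and Sall4 all lay between -0.83 and 0.64, so a rise of more than 0.64 or a drop of more than 0.83 on the log2 scale falls outside them. The summed 2-cell activation markers were 2814 to 3507 CPM in siPcgf5 and 1863 to 2336 CPM in siControl late 2-cell libraries, all 11 above 0 in both groups. Other lists that stood apart at that stage were trophectoderm at 202 to 282 CPM in siPcgf5 (Cdx2 of 11 at 0) and 329 to 339 CPM in siControl (all above 0), primitive endoderm at 36.5 to 43.4 CPM in siPcgf5 (Foxa2 of 8 at 0) and 56.3 to 69.8 CPM in siControl (all above 0), cumulus and granulosa at 22.9 to 38.6 CPM in siPcgf5 (5 of 9 above 0) and 21.1 to 21.6 CPM in siControl (6 of 9 above 0), and blood at 328 to 354 CPM in siPcgf5 and 248 to 255 CPM in siControl (3 of 6 above 0 in both). At the morula, blood (22.7 to 39.0 CPM in siPcgf5 and 16.5 to 19.3 CPM in siControl, 2 of 6 above 0 in both), sperm (1.12 to 1.58 CPM in siPcgf5, 3 of 6 above 0, and 0.748 to 0.945 CPM in siControl, 4 of 6 above 0) and cumulus and granulosa markers (0.137 to 0.263 CPM in siPcgf5, 4 of 9 above 0, and 0 to 0.128 CPM in siControl, 2 of 9 above 0) did so. Of the markers tested in these lists, 0 were called by edgeR at either stage. Only 3 of 9 cumulus and granulosa, 2 of 6 blood and 4 of 6 sperm markers passed the filter. Single genes stood apart in the same way for 31.2% of all genes at the late 2-cell stage and 31.5% at the morula. The part of these lists in the members' values was not tested.

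Tdgf1 stood on opposite sides at the 2 stages. It had 1.95 and 0.68 CPM in late 2-cell siPcgf5 libraries and 2.22 and 3.34 CPM in late 2-cell siControl libraries, and 163 and 124 CPM in morula siPcgf5 libraries and 87.8 and 95.7 CPM in morula siControl libraries. Both siPcgf5 libraries lay below both siControl libraries at the late 2-cell stage and above both at the morula. The changes were -1.09 (SE 0.423, edgeR adjusted p = 0.839) and 0.63 (SE 0.367, edgeR adjusted p = 1). The difference between them, morula minus late 2-cell, was 1.72 (SE 0.56, edgeR adjusted p = 0.945), and it did not pass over all genes. For that difference 0 of 10 members were called by edgeR, where 0% of all genes were called, with 842 genes at an unadjusted p under 0.05 and 32 called by DESeq2, no member among them.

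**Figure D3:**
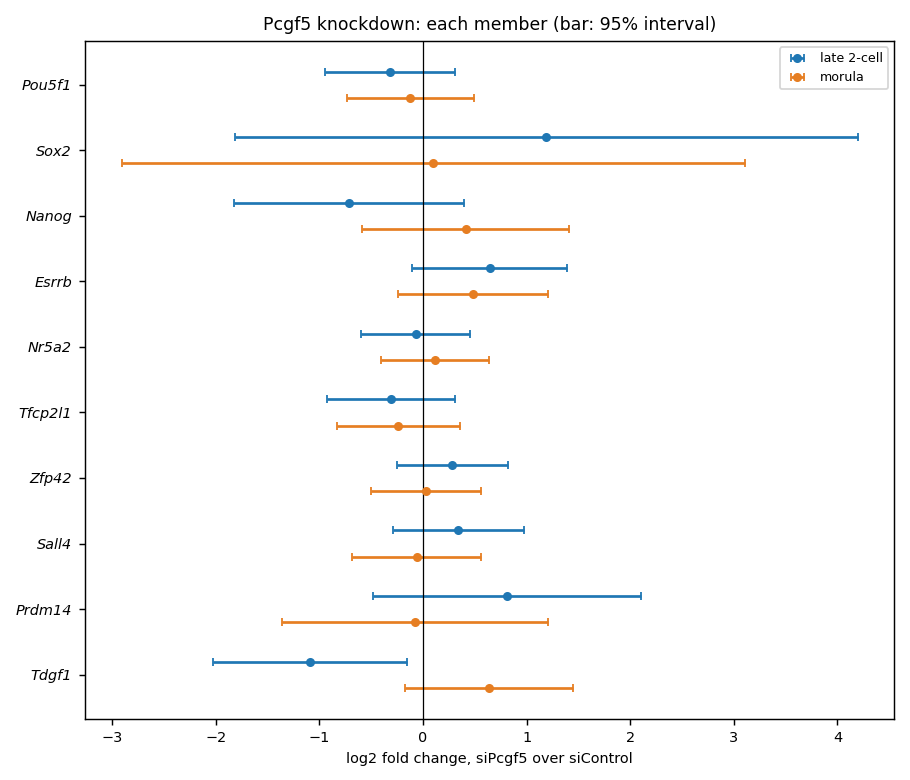
Log2 fold change of each member in siPcgf5 over siControl at the late 2-cell stage and at the morula, with 95% intervals from the edgeR fit over the 8 knockdown libraries. Every interval crosses 0 except that of Tdgf1 at the late 2-cell stage (-2.02 to -0.15), whose adjusted p over all genes was 0.839 by edgeR.

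The deletion of the MT2C_Mm repeat likewise left every member short of the threshold at the 4-cell stage. Pcgf5 was not called either, at -0.72 in Homo KO against WT and -0.10 in Hetero KO against WT (edgeR adjusted p = 0.236 and 0.987). In Homo KO against WT 0 of 10 members were called by edgeR, where 0% of all genes were called, and 1 of 10 (Esrrb) had an unadjusted p under 0.05. In Hetero KO against WT 0 of 10 were called, where 0% of all genes were called, and 0 of 10 had an unadjusted p under 0.05. In Homo KO against Hetero KO 0 of 10 were called, where 0% of all genes were called, and 1 of 10 (Nr5a2) had an unadjusted p under 0.05. Over all genes 1701, 655 and 1131 had an unadjusted p under 0.05 in these comparisons, and DESeq2 called 333, 7 and 111 genes, none of them a member. Groups did not overlap for 2 members in Homo KO against WT (30.4% of all genes), for 4 in Hetero KO against WT (20.6%) and for 2 in Homo KO against Hetero KO (14.7%). Values were below 0 for 8 members in Homo KO against WT, 8 in Hetero KO against WT and 7 in Homo KO against Hetero KO. The members' medians were -0.40, -0.18 and -0.32, against 0.02, 0.00 and -0.01 over all genes. The comparisons share libraries, and the members were not tested as a set.

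Esrrb had the lowest p of the members in Homo KO against WT. It held 1.66, 3.23 and 1.9 CPM in Homo KO, 3.67, 4.95 and 4.92 CPM in Hetero KO and 5.49 and 7.47 CPM in WT libraries. All 3 Homo KO libraries lie below all 3 Hetero KO libraries, and these lie below both WT libraries. Homo KO against WT gave -1.51 (SE 0.516, 95% interval -2.64 to -0.38, edgeR adjusted p = 0.303). Hetero KO against WT gave -0.52 (SE 0.514, edgeR adjusted p = 0.965), and Homo KO against Hetero KO gave -0.99 (SE 0.474, edgeR adjusted p = 0.622). These comparisons share libraries, and none passed over all genes. Esrrb rested on 25 to 127 expected counts per 4-cell library.

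Nr5a2, the most precisely measured member at this stage, held 48.5, 42 and 59.8 CPM in Homo KO, 63.3, 65.1 and 92.7 CPM in Hetero KO and 57.3 and 90.1 CPM in WT libraries. All 3 Homo KO values lie below all 3 Hetero KO values, and they straddle the lower WT library. The change was -0.55 in Homo KO against WT (95% interval -1.15 to 0.05, edgeR adjusted p = 0.439), and -0.55 in Homo KO against Hetero KO (95% interval -1.09 to -0.01, edgeR adjusted p = 0.602). In Hetero KO against WT it was -0.00 (95% interval -0.61 to 0.60). Summed oocyte markers, all 10 above 0 in each group, were 587 to 601 CPM in Homo KO, 322 to 719 CPM in Hetero KO and 402 to 480 CPM in WT. Summed markers of blood and of cumulus and granulosa cells stood apart in Homo KO. Only 2 of 6 blood markers and 1 of 9 cumulus and granulosa markers passed the filter. Of these 0 were called in Homo KO against WT, and whether such cells were present was not tested. The 6 blood markers summed to 62.0 to 83.3 CPM in Homo KO (Hbb-bs, Hbb-bt and Ptprc at 0), 18.8 to 47.6 CPM in Hetero KO (Hba-a2 alone above 0) and 20.2 to 48.3 CPM in WT (Hba-a1 and Hba-a2 above 0). The 9 cumulus and granulosa markers summed to 5.47 to 13.8 CPM in Homo KO (5 above 0, Has2, Amh, Inhba and Fshr at 0), 0.889 to 2.19 CPM in Hetero KO (6 above 0, Has2, Amh and Inhba at 0) and 2.21 to 2.41 CPM in WT (4 above 0, the same 4 as in Homo KO and Ptx3 at 0). The part of these markers in the Esrrb and Nr5a2 values was not tested.

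The core trio varied too much within groups for a deletion effect to be bounded closely. Pou5f1 held 0.999, 0.559 and 3.73 CPM in Homo KO, 1.93, 0.9 and 2.19 CPM in Hetero KO and 1.96 and 1.88 CPM in WT, and its 95% interval for Homo KO against WT was -2.13 to 1.89. Nanog held 0.333, 1.68 and 3.04 CPM in Homo KO, 0.466, 3.04 and 2.87 CPM in Hetero KO and 4.29 and 3.3 CPM in WT. Both WT libraries lie above the 6 libraries with a deletion, at a change of -1.16 in Homo KO against WT (SE 0.944, edgeR adjusted p = 0.639) and -0.83 in Hetero KO against WT (SE 0.943, edgeR adjusted p = 0.968). Sox2 held 0.732, 2.05 and 0.19 CPM in Homo KO, 1.13, 1.46 and 0.957 CPM in Hetero KO and 0 and 0.706 CPM in WT, where a count of 0 in 1 WT library widens the interval to -1.86 to 4.80 for Homo KO against WT. Tfcp2l1 held 2.53, 0.311 and 1.33 CPM in Homo KO, 1.2, 0.563 and 1.16 CPM in Hetero KO and 0.442 and 1.59 CPM in WT, and all 3 groups overlap.

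Zfp42 and Sall4 gave the narrowest intervals after Nr5a2. Zfp42 held 9.85, 11.9 and 16.3 CPM in Homo KO, 15.7, 19.5 and 12.2 CPM in Hetero KO and 13.8 and 15.1 CPM in WT, with a 95% interval of -0.97 to 0.60 for Homo KO against WT. Sall4 held 40.3, 102 and 117 CPM in Homo KO, 63.5, 65.5 and 90.3 CPM in Hetero KO and 97.7 and 109 CPM in WT, with an interval of -1.07 to 0.56. All 3 Hetero KO libraries lie below both WT libraries for Sall4, at -0.50 (SE 0.368, edgeR adjusted p = 0.951), while 1 of the Homo KO libraries lies above both. Prdm14 ranged from 1.13 to 10.1 CPM over the 8 libraries with overlap among all 3 groups. Tdgf1 changed by -1.44 in Homo KO against WT (95% interval -4.19 to 1.31) and by -0.91 in Hetero KO against WT (95% interval -3.65 to 1.83).

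**Figure D4:**
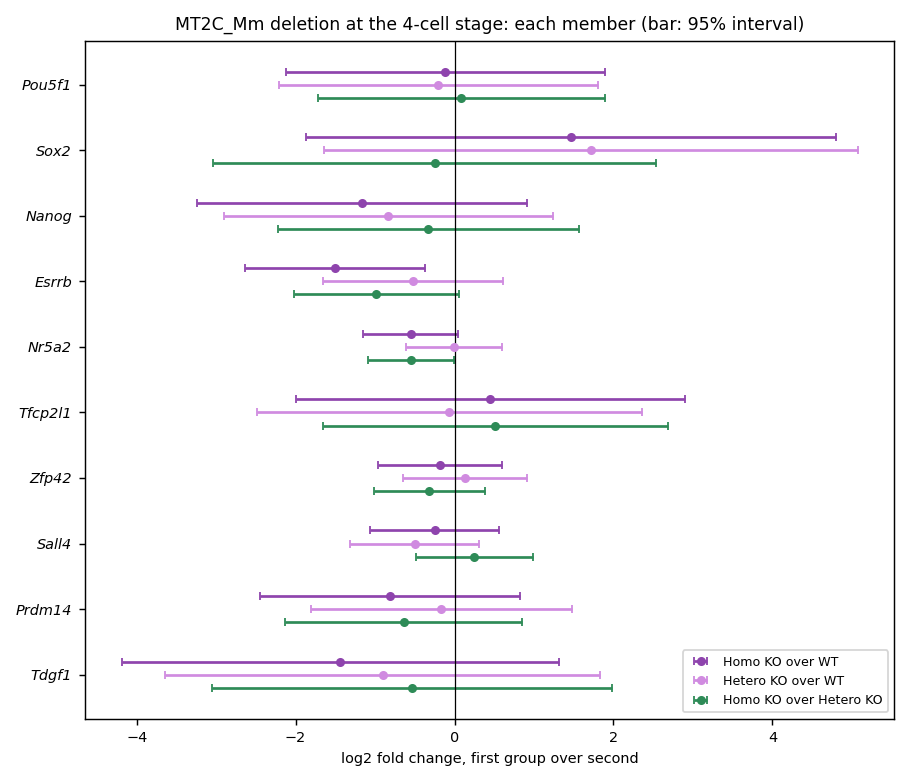
Log2 fold change of each member at the 4-cell stage for Homo KO over WT, Hetero KO over WT and Homo KO over Hetero KO, with 95% intervals from the edgeR fit over the 8 libraries of this stage. The interval of Esrrb in Homo KO over WT (-2.64 to -0.38) and that of Nr5a2 in Homo KO over Hetero KO (-1.09 to -0.01) lie left of 0, and neither change passed the threshold over all genes.

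Between libraries of the 4-cell stage the members differed more than within the other stages. Tdgf1 spanned 0.435 to 24.8 CPM over the 8 libraries, a 56.9-fold range, against 4.91-fold over the 4 late 2-cell libraries and 1.86-fold over the 4 morula libraries. Nanog spanned 12.9-fold at the 4-cell stage, Prdm14 8.93-fold, Tfcp2l1 8.14-fold and Pou5f1 6.67-fold, and at the morula these 4 spanned 1.33-fold to 2.16-fold. Of the 10 members, 8 were lowest in Homo KO replicate 1 or 2, with no share over all genes to set beside this count. Nanog, Esrrb, Zfp42 and Sall4 were lowest in Homo KO replicate 1, and Pou5f1, Tfcp2l1, Nr5a2 and Tdgf1 in Homo KO replicate 2. Prdm14 was lowest in Hetero KO replicate 1 and Sox2 in WT replicate 1. Homo KO libraries also held the highest 4-cell values of Pou5f1 (3.73 CPM) and Sall4 (117 CPM), both in replicate 3. The same held for Tfcp2l1 (2.53 CPM, replicate 1) and Sox2 (2.05 CPM, replicate 2). The other members were highest in a Hetero KO or WT library. Zfp42 and Nr5a2, with 148 counts or more in every 4-cell library, spanned 1.98-fold and 2.21-fold. The 4-cell groups differ in genotype and number of libraries from the others, so the ranges describe these libraries.

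Of 35 other genes of the naive pluripotency network, 11 were called higher and 10 lower in siControl morulae against siControl late 2-cell embryos, with a median of 0.41 against -0.34 over all genes. Of all genes tested 24.9% were called higher and 28.1% lower there, which is near the shares in this list. On the TPM scale these counts were 7 and 15. Klf5, a Krüppel-like factor of the early lineages, averaged 199.6 ± 1.31 CPM in siControl morulae and 15.4 ± 3.71 CPM in siControl late 2-cell embryos (SD, n = 2 each), a log2 fold change of 3.70. Klf2, of the same family, averaged 55.4 ± 0.464 CPM in siControl morulae and 8.57 ± 1.53 CPM in siControl late 2-cell embryos. Tbx3 rose by 3.60 and Dppa5a, an RNA-binding protein of pluripotent cells, by 2.81. Utf1, a chromatin-associated factor of pluripotent cells, averaged 62.7 ± 10.9 CPM in siControl morulae and 2.92 ± 1.08 CPM in siControl late 2-cell embryos. Tcl1, a cofactor of the kinase AKT that is also abundant in oocytes, fell to 4.96 ± 2.45 CPM in siControl morulae, against 2977 ± 1944 CPM in siControl late 2-cell embryos. In siPcgf5 embryos 14 of the 35 were called higher and 11 lower between the same stages (9 and 14 on the TPM scale), where 24.5% of all genes were called higher and 28.2% lower, led by Klf5 at 3.54, Tcl1 at -9.53 and Utf1 at 4.23.

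At the first step 9 of 34 tested genes of this network were called higher and 5 lower (8 and 9 on the TPM scale), beside 17.5% of all genes called higher and 15.2% lower. Tet1, a dioxygenase that oxidises 5-methylcytosine, averaged 148 ± 5.39 CPM in WT 4-cell and 15.3 ± 4.82 CPM in siControl late 2-cell embryos, a change of 3.28, beside Klf2 at 2.35 and Dppa2 at 1.64. At the second step 9 were called higher and 9 lower (6 and 12 on the TPM scale), beside 14.9% and 15.3% of all genes. Tet1 fell to 31.8 ± 10.4 CPM in siControl morulae, against 148 ± 5.39 CPM in WT 4-cell embryos, and Klf17 fell to 32.5 ± 20.1 CPM against 285 ± 29.3 CPM. Gdf3, a TGF-beta family ligand, changed by 5.91 and Tbx3 by 4.40 at this step.

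Of 12 genes of primed or formative pluripotency, 10 were tested for siControl morula against siControl late 2-cell, and 2 were called higher and 3 lower (1 and 6 on the TPM scale), about the shares of all genes (24.9% higher and 28.1% lower). Dnmt3b, a de novo DNA methyltransferase, averaged 18.5 ± 1.56 CPM in siControl morulae and 5.48 ± 0.897 CPM in siControl late 2-cell embryos. This rise was called in 6 of 7 settings, with log2 values down to 0.53. Otx2, a homeodomain factor, averaged 3.47 ± 0.339 CPM in siControl morulae and 0.0563 ± 0.0797 CPM in siControl late 2-cell embryos. The T-box gene T was at 0 in both siControl morula libraries, against 2.82 ± 0.787 CPM in siControl late 2-cell embryos, at least 73.3-fold lower when 3 counts over the group are taken as the floor. At the first step 0 of 9 were called higher and 2 lower, Fgf5 and T, both at 0 in WT 4-cell libraries, against 6.94 and 1.28 CPM of Fgf5 and 2.27 and 3.38 CPM of T in siControl late 2-cell libraries. With the same floor T was at least 30.9-fold lower. For Fgf5 the bound of 45.0-fold rests on 1 library, since the other siControl late 2-cell library alone gives 14.0-fold. Of all genes 17.5% were called higher and 15.2% lower at this step. At the second step 2 of 9 were called higher (Dnmt3b and Otx2) and 0 lower, or 2 and 2 on the TPM scale, beside 14.9% and 15.3% of all genes. Otx2 passed narrowly there (4.75, SE 1.74, edgeR adjusted p = 0.0486) and in 5 of 7 settings. Its WT 4-cell level was 0.126 ± 0.178 CPM.

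Of 26 partners and family members of the regulators, 25 were tested for siControl morula against siControl late 2-cell, and 11 were called higher and 4 lower (6 and 8 on the TPM scale), beside 24.9% and 28.1% of all genes. Sox15, a SOX factor, averaged 395 ± 11.9 CPM in siControl morulae and 15.4 ± 1.23 CPM in siControl late 2-cell embryos, and Sox21 averaged 9.85 ± 1.03 CPM in siControl morulae and 0.0114 ± 0.0162 CPM in siControl late 2-cell embryos. In TPM these siControl morulae held 333 and 322 of Sox15, 2.29 and 1.99 of Sox21 and 0.07 and 0.38 of Sox2. Wdr5, a subunit of histone methyltransferase complexes, rose by 1.97, the deacetylase Hdac2 by 1.34 and the remodelling ATPase Smarca4 by 1.61. Hdac2 and Smarca4 were each called in 6 of 7 settings here, with values down to 0.32 and 0.52. At the first step 10 of 25 were called higher and 2 lower (6 and 4 on the TPM scale), beside 17.5% and 15.2% of all genes. Among those higher were Smarca4 at 1.79 and Yy1 at 1.28, the latter called in 6 of 7 settings. At the second step 5 were called higher and 3 lower (1 and 5 on the TPM scale), beside 14.9% and 15.3%. None of the genes of these 3 lists was called in any comparison of siPcgf5 with siControl or among the 4-cell genotypes by edgeR. With no filter on low counts 1 gene of the naive network was called lower at the morula, and DESeq2 called 1 of that list at each stage of the knockdown.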

How the data were processed

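Polyadenylated RNA of 16 libraries, each of 10 embryos and all with the same batch label, went into SMART-Seq v4 PLUS library preparation, according to the labels. The series' 4 H2AK119ub1 chromatin libraries were not analysed here. Expected counts per gene, not normalized, and TPM were computed by the authors with RSEM, per the file headers. The submitters' processing notes list, with no roles, the build mm10 and the tools deepTools, Bowtie2 2.4.5, RSEM 1.3.3 and STAR 2.7.10. The strand setting and read filters are not given in the sources used here.

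Expected counts were rounded, filtered (filterByExpr, minimum count 10), TMM-scaled and tested two-sided with edgeR 4.0.16 (robust quasi-likelihood, R 4.3.3) with Benjamini-Hochberg adjustment over all genes tested. The 8 knockdown libraries (16980 genes), the 8 libraries of the 4-cell stage (13766 genes) and, for steps through the 4-cell stage, all 16 (16669 genes) were fitted with 1 coefficient per group and no replicate block. Alternatives were DESeq2 size factors, no filter, DESeq2 1.42.0, limma 3.58.1 on log2(TPM + 1), the replicate block, only the groups compared, and each library left out in turn. The fits were tested on simulated data.

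All 10 members are named. Of related lists, up to 6 called genes with the smallest p per comparison could be named; the text names some of these. Members and lists were chosen with earlier results of these data known. Symbols matched RefSeq (GRCm38.p6) for 24303 of 24411 genes. RefSeq names pseudogene or related copies of Pou5f1 (5), Nanog (2), Tdgf1 (2) and Zfp42 (1), none listed in the files, so how shared reads were assigned is unknown for these members. No replicate pair within a group was alike within sampling noise (11 pairs, chi-square per gene 42.7 to 164.5).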

Additional observations from a re-analysis of the deposited data

Results flagged for a closer look

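Tdgf1 was marked because its knockdown effects had opposite signs at the 2 stages, with no overlap between siPcgf5 and siControl libraries at either. The difference between the effects, morula minus late 2-cell, was 1.72 on the log2 scale (SE 0.56). Its edgeR adjusted p over all 16980 genes was 0.945, so it did not pass. It kept its sign with every library left out in turn, between 1.16 and 2.65, and with every other setting, between 1.42 and 1.80. At the late 2-cell stage the gene rested on 29 to 97 expected counts per library.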

How the results depend on the processing

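The number of members called differed in 5 of 59 refits that used another normalization, filter, tool or unit, the replicate block or only the groups compared. For siPcgf5 morula against late 2-cell it was 8 in place of 7 with no filter or only the groups compared, and at the second step (siControl morula against WT 4-cell), where it was 5, it was 6 with the replicate block, 4 with limma on TPM and 7 with only the groups compared. It differed in 7 of 48 refits that left out 1 library. It was 8 in place of 7 for siControl morula against late 2-cell without siControl late 2-cell replicate 2. At the first step (WT 4-cell against siControl late 2-cell), where it was 4, dropping siControl late 2-cell replicate 1 gave 2, and dropping either WT library gave 3 (range 2 to 4), and at the second step it was 3 without siControl morula replicate 1 or WT replicate 1 and 4 without WT replicate 2 (range 3 to 5). Where an arm then held 1 library, that library is assumed to vary like the other groups. No value of a member turned while past the threshold in 1070 refitted values, and 82 values that were not called changed sign. Single members gained a call as well: Nr5a2 from siPcgf5 late 2-cell to morula with no filter (0.62) or only the groups compared (0.55), Nr5a2 in siControl without late 2-cell replicate 2 (0.68), Sall4 at the second step with the replicate block (0.91) or only the groups compared (0.83), and Tdgf1 there with only the groups compared (2.52).

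Replicate numbers are shared across groups. Deviations of same-numbered libraries correlated between -0.04 and 0.01 in the knockdown and between -0.12 and 0.15 at the 4-cell stage. Of 6 KO libraries 2 correlated best with their own number, and these are 1 pair seen from both sides. In the knockdown the 2 libraries of a group mirror each other, so each correlation counts once. These values gave no sign of pairing by number but cannot exclude it, and shared litters or culture days were not tested. With the replicate block 7 members were called higher between late 2-cell and morula in siControl and in siPcgf5, 4 were called at the first step, 6 (with Sall4) at the second, and 0 in every comparison of siPcgf5 with siControl or of genotypes. Over all genes the block gave 1 call at the late 2-cell stage, against 2 without it.

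Counts over all genes moved in the knockdown and genotype comparisons. At the late 2-cell stage the 2 calls became 5 with DESeq2 size factors, 28 with no filter, 72 with DESeq2, 18 with limma on TPM and 1 with only the groups compared. At the morula the count of 0 became 26 with no filter, 23 with DESeq2 and 1 with only the groups compared, and for the difference of effects 33, 32 and, with limma, 1. Homo KO against WT had 59 calls with no filter and 333 with DESeq2, Hetero KO against WT 1 and 7, and Homo KO against Hetero KO 111 with DESeq2 and 1 with only the groups compared. With 1 library left out, the late 2-cell count ranged over 0 to 63, with 0 when either siPcgf5 library was dropped, 6 when siControl replicate 1 was and 63 when siControl replicate 2 was. The count of 0 at the morula became 2 without siControl replicate 1 and 6 without siPcgf5 replicate 1, and that of the difference became 5 without siPcgf5 morula replicate 1. Homo KO against WT had 0 to 30 calls and Hetero KO against WT 0 to 1, both highest without WT replicate 1, and Homo KO against Hetero KO 0 to 4, highest without Homo KO replicate 1. The first step had 3208 to 4656 calls with 1 library left out, against 5442, and the second 3105 to 4162, against 5042. DESeq2 size factors shifted the median of all genes by -0.17 for siControl morula against siControl late 2-cell and by -0.19 at the first step. The causes were not tested. With 2 or 3 pools a group and members at a few CPM, some changes at the 4-cell stage could not be bounded within several fold. These were the changes of Pou5f1, Nanog, Sox2, Prdm14, Tdgf1 and Tfcp2l1.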

Other observations

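Across the 16 libraries the members fell into those that moved alike and those that did not, by the Pearson correlation of log2 CPM (prior count 2). These values are descriptions, since the points share stage, experiment and depth. Pou5f1 was most like Tfcp2l1 among the members (r = 0.96) and also close to Zfp42 (r = 0.96). Nanog was most like Esrrb (r = 0.90), Sall4 was most like Nanog (r = 0.81), and Tdgf1 was likewise most like Nanog (r = 0.81). Nr5a2 was most like Esrrb (r = 0.79), while Sox2 and Prdm14 reached 0.31 with each other and no more with any other member.

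Among 6546 genes with a mean of at least 10 CPM, leaving out predicted genes, the course of Pou5f1 was most like that of Gnb1 (r = 0.98), a G-protein subunit, followed by Tfcp2l1 and Ppp1r14b (both r = 0.96). Tfcp2l1 was most like Rnaset2a (r = 0.97) and Zfp42 most like Arpc1b (r = 0.98), a subunit of the actin-nucleating Arp2/3 complex. Nanog was most like Smpdl3a (r = 0.95), with Utf1 among its nearest 3 (r = 0.94). Sall4 was most like Myef2 (r = 0.96), Tdgf1 like Cdipt (r = 0.97), Esrrb like Chmp7 (r = 0.97) and Nr5a2 like Pramel6 (r = 0.91). The nearest genes of Prdm14 (Il2rg, r = 0.78) and Sox2 (Magt1, r = 0.70) were less alike. The part of the low counts of these members in this was not tested.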
